A study of Mus musculus with 34 samples.

Results

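Livers that carried a β-catenin isoform named skip1 in the induced condition (5 libraries, called skip1 tumours 1 to 5 below) were compared with livers labelled as carrying the same isoform alone (3 libraries, called skip1 alone). They were chosen by their sample labels, and are 8 of the 18 libraries of one normalized count table and 8 of the 34 libraries of the series. All were mouse liver after hydrodynamic injection, in which a large fluid volume is pushed into a vein to bring DNA into hepatocytes. The series concerns forms of β-catenin made by CRISPR-induced exon skipping, so the comparison asks what differs between the liver in the induced condition and the liver that holds the isoform alone. By their labels, the controls carried skip1 too. The labels do not say what else the induced livers received, which exon skip1 lacks, the strain, sex or age of the mice, or whether libraries came from separate animals, and their extraction text speaks of frozen tumours for every library, controls included. The fit also held 2 wild type, 2 skip2 alone (another exon-skipped isoform), 2 skip2 induced and 4 dN90 induced libraries, dN90 being a β-catenin without its N-terminal stretch. Since nothing says that the libraries came from separate animals, p-values measure the spread between libraries only.

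β-catenin joins cadherins to the cytoskeleton and carries the Wnt signal. A destruction complex binds its N-terminal part, phosphorylates it and so marks it for breakdown, and β-catenin that escapes enters the nucleus and activates genes with TCF/LEF factors. In liver this signal sets up zones: hepatocytes around the central vein, where it is active, make glutamine and oxidise drugs, and those around the portal vein make urea and glucose. YAP, the effector of the Hippo pathway, acts through TEAD factors on genes of growth and cell shape.

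Ctnnb1 (chr9:120929216-120960507 on mm10, plus strand), which encodes β-catenin, was checked first. Its normalized counts were 125, 151 and 148 in skip1 alone, 128 and 148 in wild type and 1266, 580.2, 737, 768 and 669 in the skip1 tumours. Every tumour was above every control, and tumour 1 stood above the other tumours. The gene-level value does not tell the skipped isoform from the full-length one. The tumours' normalized counts summed to 415528 to 524243 per library against 625660 to 651234 in skip1 alone, and estimated reads were 412526 to 566730 against 385526 to 611153. This is shallow, so genes under a mean of 10 over the 18 libraries were left out (6592 of 14086 genes were tested). On the first principal component, 49.9% of the variance, skip1 alone lay between -45.0 and -36.2. Tumours 1 and 2 lay at 4.81 and -7.48 and tumours 3, 4 and 5 between 14.3 and 24.7, so the results that lead each paragraph were also run without tumours 1 and 2.

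Of the 6592 genes, 971 (14.7%) passed an adjusted p of 0.05 in limma on log2(normalized count + 1) and are named called, 432 higher in the tumours (6.55%) and 539 lower (8.18%). Without tumours 1 and 2 the calls were 488 higher and 732 lower, without skip1 alone replicate 3 they were 272 and 296, and without skip1 alone replicate 2 they were 313 and 344. The balance of directions moved with the scaling and with the filter. Upper-quartile scaling, which shifts all genes of a library alike and under which the median of all genes was 0.116 log2 units (-0.02 as deposited), gave 607 higher and 373 lower, quantile normalization gave 398 and 303, and voom on estimated reads, which also weights genes and whose median was 0.435, gave 1229 and 208. Among all 14086 genes the calls were 810 higher (5.75%) and 539 lower (3.83%), and among the 1679 genes with a mean of at least 50 they were 117 and 428. The groups did not overlap for 548 genes that were higher in the tumours (8.31%) and 705 that were lower (10.7%). The median spread of a gene was similar in both groups, with an SD of 0.361 log2 units in the tumours and 0.340 in skip1 alone.

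**Figure D1:**
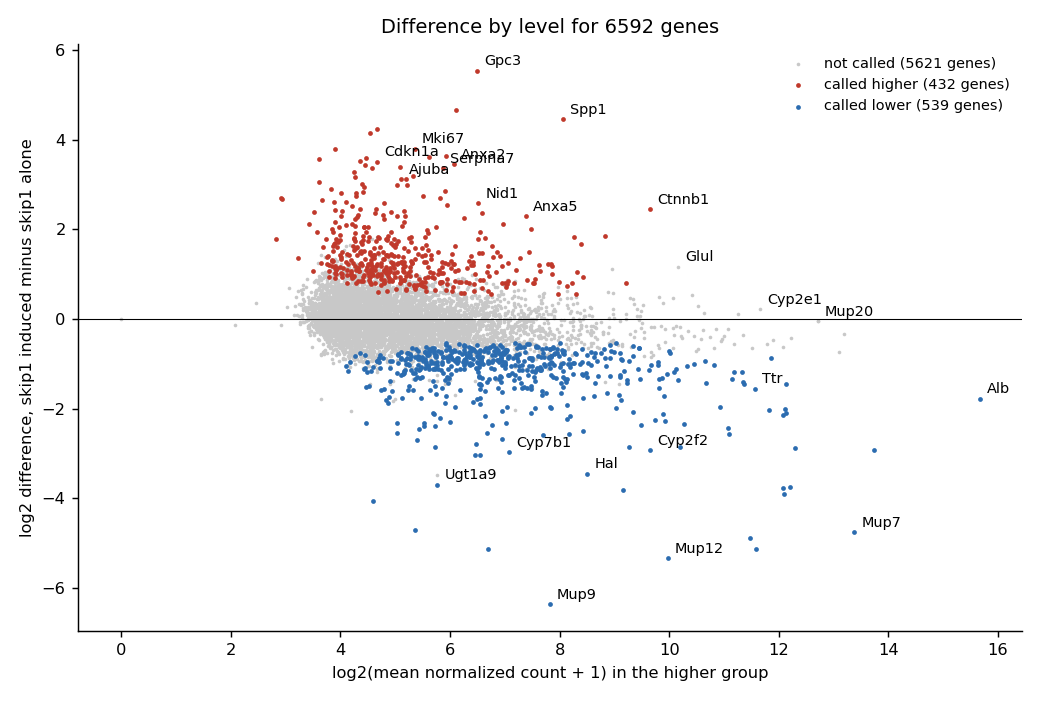
Each point is 1 of 6592 genes, placed by the log2 of its mean normalized count + 1 in the higher of the 2 groups (x) and by its log2 difference, skip1 induced minus skip1 alone (y); red and blue mark the 432 genes called higher and the 539 called lower. Gpc3 lies at the top (5.54), Mup genes at the bottom (Mup9, -6.37), and the called genes of high level are mostly on the lower side.

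Among genes of cell division, calls were in 1 direction. Of the 29 cell cycle and mitosis genes listed, 6 passed the filter on low values and 3 were called higher, with none called lower. Mki67 (chr7:135689784-135716361), a marker of cycling cells, had 0, 4.60 and 3.20 normalized counts in skip1 alone and 32.3, 25.9, 50.2, 46.03 and 45.8 in the tumours. All 5 tumours were above all controls, with tumours 1 and 2 lowest, and the log2 difference was 3.80 ± 0.45 (SE, adjusted p = 1.57e-05). Top2a, which untangles DNA during mitosis, rose by 3.17 ± 0.48 (SE, adjusted p = 0.000178). Of 26 DNA replication genes, 8 passed the filter and 4 were called higher. Among them were Mcm6, a part of the helicase that opens DNA for copying, at 2.46 ± 0.45 (SE, adjusted p = 0.00095), the ligase Lig1 at 2.82 ± 0.48 (SE, adjusted p = 0.000622) and Pcna, the sliding clamp of the polymerases, at 1.37 ± 0.31 (SE, adjusted p = 0.00464). With no filter, 13 of the 29 and 11 of the 26 genes were called higher and none lower. Without tumours 1 and 2 the filtered counts were again 3 and 4.

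Some genes that p53 activates also rose. Of 18 p53 targets listed, 10 passed the filter and 4 were called higher, with none lower (2 without skip1 alone replicate 2 or tumour 4 or 5 and under quantile normalization). With no filter 6 of 17 were called higher and none lower. The shares called higher over all genes were 6.55% with the filter and 5.75% without it. Cdkn1a (chr17:29090976-29100727) encodes p21, which halts the cell cycle. It had 0, 2.30 and 1.07 normalized counts in skip1 alone and 6.46, 14.8, 26.04, 38.9 and 36.2 in the tumours, a difference of 3.51 ± 0.60 (SE, adjusted p = 0.000591). It was lowest in tumours 1 and 2 and still above every control. Bax, which starts cell death at mitochondria, had 9.87, 8.05 and 10.7 in skip1 alone and 15.1, 18.5, 32.5, 46.03 and 36.2 in the tumours and rose by 1.44 ± 0.30 (SE, adjusted p = 0.00291).

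E2F factors act on many genes of replication, so the promoters of the division genes called higher were searched for the E2F letters TTCGCGC or TTGGCGC on both strands. The RefSeq promoter table (GRCm38.p6, 250 bases before to 50 after each start) held 2 of the 3 division genes called higher and 4 of the 4 replication genes. A match lay in the promoters of Mki67, Mcm6 and Lig1. Over the whole table, 3.89% of 32851 promoters held these letters. E2F letters also lay in 1 of 6 promoters of called YAP genes (Ccn1) and 1 of 6 of called Wnt feedback targets (Axin2). None of the 14 promoters of called portal genes held them. The division and replication genes were picked because they were called, so these matches are no test of E2F. Letters of TCF/LEF (CTTTGAT) and of the hepatocyte factor HNF4 (CAAAGTC) were searched too. TCF/LEF letters lay in 1 of 6 promoters of called Wnt feedback targets (Tnfrsf19) and 1 of 14 of called portal genes (Hal). HNF4 letters lay in 2 of 14 promoters of called portal genes. Their shares over the whole table were 3.73% and 4.44%. Neither lay in promoters of the called division, replication or YAP genes. The 250 bases before the start of Mki67 and Mcm6 are shown 5′ to 3′ on the gene's strand, with E2F matches in capitals. In Mcm6, neighbouring matches on opposite strands overlap.
Mki67, chr7:135716380-135716629, minus strand: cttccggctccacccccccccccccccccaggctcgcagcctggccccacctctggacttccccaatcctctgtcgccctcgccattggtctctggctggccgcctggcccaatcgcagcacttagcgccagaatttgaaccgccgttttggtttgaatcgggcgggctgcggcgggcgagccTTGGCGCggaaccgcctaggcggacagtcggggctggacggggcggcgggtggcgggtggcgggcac
Mcm6, chr1:128359706-128359955, minus strand: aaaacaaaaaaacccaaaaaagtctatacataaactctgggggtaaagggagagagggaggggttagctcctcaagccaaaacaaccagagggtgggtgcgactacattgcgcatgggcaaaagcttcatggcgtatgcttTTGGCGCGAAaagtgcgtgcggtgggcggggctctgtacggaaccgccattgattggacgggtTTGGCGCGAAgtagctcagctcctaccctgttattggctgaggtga

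Targets of Wnt signalling moved unevenly. Of 8 feedback targets that passed the filter, 4 were called higher and 1 lower (median 0.87, against -0.02 over all genes; 2 were called higher without skip1 alone replicate 1). Tnfrsf19, a receptor of the TNF family, had 0, 7.09 and 2.19 normalized counts in skip1 alone and 17.7, 23.7, 16.2, 21.3 and 21.9 in the tumours, a log2 difference of 2.83 ± 0.45 (SE, adjusted p = 0.00034). Ccnd1, cyclin D1 of the G1 phase, had 34.5, 21.9 and 21.3 and 91.5, 81.4, 89.2, 102 and 84.1 and rose by 1.78 ± 0.30 (SE, adjusted p = 0.000597). Every tumour was above every control for both. Axin2, a scaffold of the destruction complex that β-catenin itself induces, had 1.64, 6.90 and 5.33 in skip1 alone and 8.61, 12.03, 23.2, 26.2 and 20.2 in the tumours and rose by 1.80 ± 0.47 (SE, adjusted p = 0.014). That call was lost under voom and without skip1 alone replicate 1. Lgr4, a receptor for R-spondin, fell by 0.90 (adjusted p = 0.014), a call lost under voom and without skip1 alone replicate 2 or 3. Lgr5, another R-spondin receptor and a marker of cells around the central vein, was under the filter, with a mean of 9.29 ± 6.48 (SD, n = 5) in the tumours and 4.38 ± 1.75 (SD, n = 3) in skip1 alone, and did not pass the test without a filter (adjusted p = 0.503).

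Genes of hepatocytes around the central vein were called, as deposited, at about the share of all genes (14.7%). Of 19 tested, 2 were called higher and 1 lower, with a median of 0.47. Of the 2, Axin2 was also counted among the feedback targets above. Glul (chr1:153899944-153909723), glutamine synthetase, had 528, 329 and 510.4 normalized counts in skip1 alone and 558, 500.4, 1227, 1909.9 and 1539.6 in the tumours. Tumours 1 and 2 lay at the level of the controls and tumours 3, 4 and 5 at least 1227, above every control. Its difference of 1.17 ± 0.48 (SE, adjusted p = 0.113) was not called with all tumours. It was called without tumour 2, without tumours 1 and 2, under quantile normalization and under voom. Cyp2e1, which oxidises ethanol, had 3354, 1794 and 3500.4 in skip1 alone and 3468, 3732, 2653, 3587 and 2785 in the tumours, and the groups overlapped (difference 0.22 ± 0.26 (SE, adjusted p = 0.634); called higher under quantile normalization and voom). Of central genes, 2 were called higher as deposited, 1 without skip1 alone replicate 1, 4 without replicate 3 or without tumour 2, 6 without tumours 1 and 2, 5 under upper-quartile scaling, 7 under quantile normalization and 8 under voom. The median was 0.82 under quantile normalization and 0.95 under voom.

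**Figure D2:**
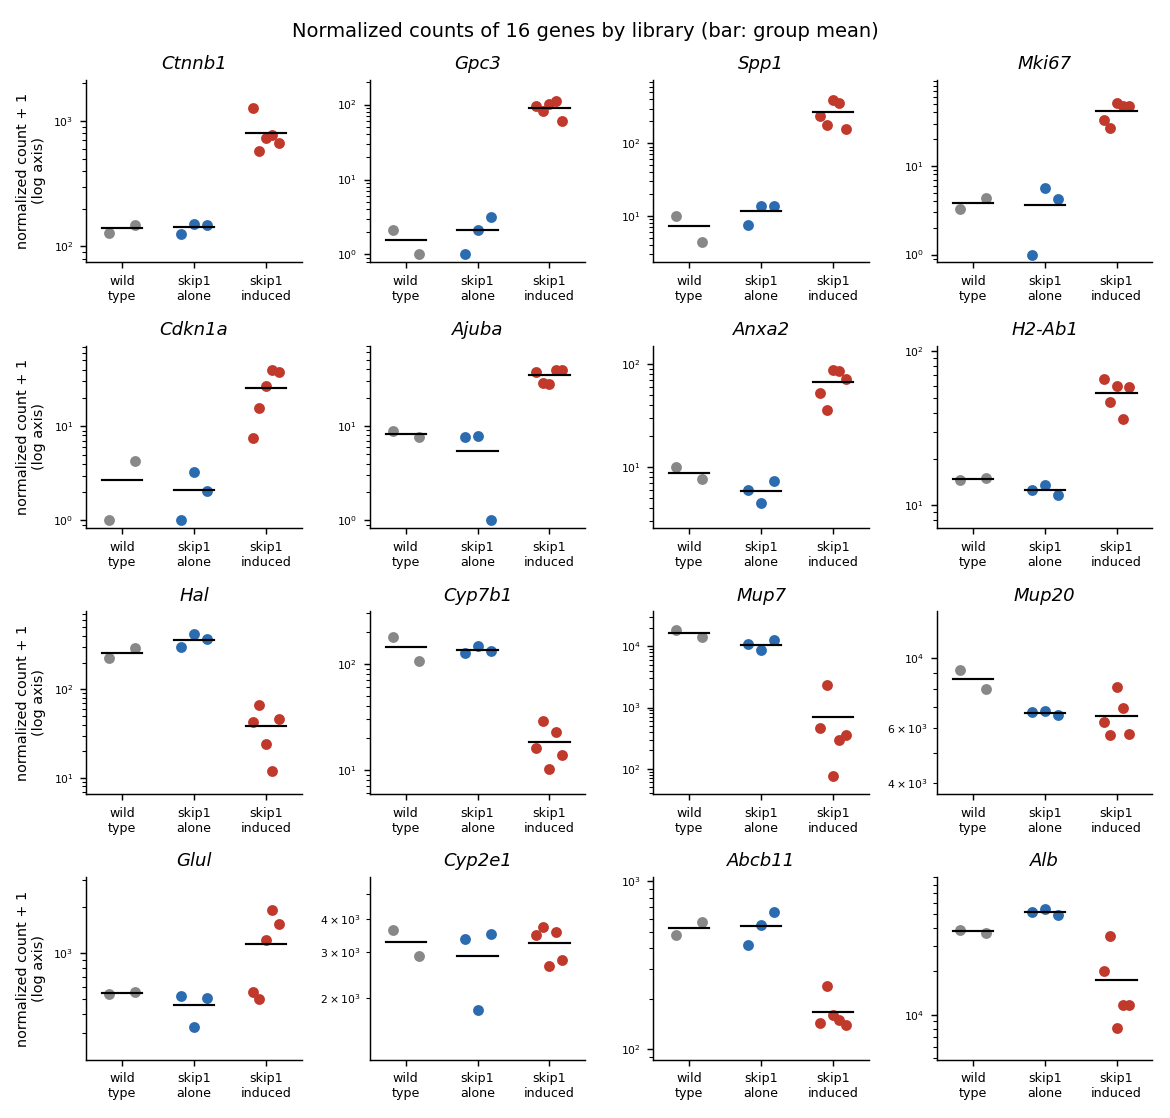
Each panel shows 1 gene: points are libraries of wild type (2), skip1 alone (3) and skip1 induced (5), the y axis is the normalized count + 1 on a log scale, and bars are group means. Ctnnb1, Gpc3, Spp1 and Anxa2 are higher in all 5 tumours than in all 3 skip1 alone livers, Hal, Cyp7b1 and Mup7 are lower in all 5, Mup20 and Cyp2e1 overlap, and Glul is high in tumours 3, 4 and 5.

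About as many targets of YAP and TEAD were called higher as were not called. Of 13 that passed the filter out of 27 listed, 7 were called higher and none lower, with a median of 1.04. Over all genes 6.55% were called higher. The filtered count was 7 without tumours 1 and 2 and 4 without skip1 alone replicate 3. With no filter 9 of 25 were called higher and none lower, beside 5.75% of all genes. Ajuba (chr14:54567472-54577558), an adaptor that restrains the Hippo kinase LATS, had 6.58, 6.90 and 0 normalized counts in skip1 alone and 36.6, 27.8, 26.9, 37.9 and 38.3 in the tumours, a difference of 3.12 ± 0.48 (SE, adjusted p = 0.000197). Myof, a membrane repair protein, rose by 2.23 ± 0.42 (SE, adjusted p = 0.00137), and Ccn1, a matrix protein secreted on YAP activation, by 1.81 ± 0.37 (SE, adjusted p = 0.00253). Crim1, a membrane protein that binds BMPs, rose by 1.06 ± 0.24 (SE, adjusted p = 0.00489). Weaker calls were those of Ptpn14, a phosphatase that binds YAP, at 1.33 ± 0.35 (SE, adjusted p = 0.0146), and of the receptor kinase Axl, at 0.96 ± 0.27 (SE, adjusted p = 0.0181). Ptpn14 was lost without skip1 alone replicate 3, and Axl without replicate 2 or 3 and when only the compared groups were fitted. Yap1 itself had 46.3, 41.1 and 32.1 in skip1 alone and 34.6, 50.5, 20.5, 37.9 and 33.2 in the tumours, overlapping ranges with a difference of -0.21 ± 0.27 (SE, adjusted p = 0.671). Ccn2, the target most used as a reporter, was under the filter at 7.23 ± 2.96 (SD, n = 5) against 3.18 ± 2.25 (SD, n = 3).

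The promoters of 6 of these 7 genes were in the RefSeq table, and 5 held the TEAD letters GGAATG on either strand, as did 14.7% of all 32851 promoters. A match is a run of letters and not a bound site, and the share over all promoters is given as a description. These genes were picked because they were called, from a list of YAP and TEAD targets, and members not called were not searched. The share of matches is therefore no test of TEAD. TEAD letters also lay in 1 of 6 promoters of called replication genes (Lig1) and 1 of 6 of called Wnt feedback targets (Lgr4). They lay in 1 of 14 promoters of called portal genes (Etnppl) and in neither of the 2 of called division genes. The promoters with a match are shown for 250 bases before each start, 5′ to 3′ on the gene's strand on GRCm38.p6. The TEAD letters or their reverse complement are in capitals. Only 79.3% of the genes tested had a promoter in the table, so called genes were not tested against other genes.
Ccn1, chr3:145649986-145650235, minus strand: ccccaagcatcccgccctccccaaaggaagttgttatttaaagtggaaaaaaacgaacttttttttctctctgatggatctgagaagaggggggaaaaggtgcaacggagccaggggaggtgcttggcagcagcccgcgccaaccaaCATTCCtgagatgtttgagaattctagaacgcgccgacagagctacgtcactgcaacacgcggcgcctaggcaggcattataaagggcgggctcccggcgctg
Ajuba, chr14:54577662-54577911, minus strand: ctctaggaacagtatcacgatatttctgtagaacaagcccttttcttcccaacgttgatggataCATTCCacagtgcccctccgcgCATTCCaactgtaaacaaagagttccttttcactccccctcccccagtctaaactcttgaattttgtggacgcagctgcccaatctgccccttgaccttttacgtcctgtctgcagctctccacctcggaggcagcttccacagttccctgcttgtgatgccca
Ptpn14, chr1:189728018-189728267, plus strand: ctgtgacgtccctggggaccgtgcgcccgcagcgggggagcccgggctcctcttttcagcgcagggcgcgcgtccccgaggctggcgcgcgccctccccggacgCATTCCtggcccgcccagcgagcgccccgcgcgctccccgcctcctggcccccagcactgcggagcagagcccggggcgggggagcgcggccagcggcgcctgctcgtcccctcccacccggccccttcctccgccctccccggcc
Axl, chr7:25788734-25788983, minus strand: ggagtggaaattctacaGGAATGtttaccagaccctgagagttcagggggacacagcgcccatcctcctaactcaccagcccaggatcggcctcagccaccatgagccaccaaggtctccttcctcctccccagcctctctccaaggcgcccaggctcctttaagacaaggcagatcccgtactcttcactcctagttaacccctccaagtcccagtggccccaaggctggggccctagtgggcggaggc
Crim1, chr17:78199998-78200247, plus strand: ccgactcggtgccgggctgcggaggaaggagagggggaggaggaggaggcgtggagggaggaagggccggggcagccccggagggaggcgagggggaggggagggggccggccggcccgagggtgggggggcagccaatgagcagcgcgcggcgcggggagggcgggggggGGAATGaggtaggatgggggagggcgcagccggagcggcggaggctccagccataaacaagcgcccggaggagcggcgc

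Genes of the embryonic and biliary liver held the largest rise. Gpc3 (chrX:52272426-52613950 on the X chromosome, minus strand), a cell surface glypican that adult hepatocytes hardly make and liver cancers often do, had 0, 1.15 and 2.13 normalized counts in skip1 alone and 93.6, 80.5, 101, 112 and 58.6 in the tumours. Every tumour was above every control, and the difference of 5.54 ± 0.36 (SE, adjusted p = 5.78e-09) was the largest of any gene in the fit. Of 5 oncofetal genes that passed the filter, 2 were called higher. The other was the imprinted RNA H19 (chr7:142575529-142578143), listed at 0 in all 3 skip1 alone libraries and at 1.08, 4.63, 10.2, 11.7 and 5.33 in the tumours. H19 passed the filter through other induced livers, at 196 and 116 in skip2 induced and 15.3 to 148 in dN90 induced. Its call was lost with a pseudocount of 5, under quantile normalization and under voom. With no filter 5 of 22 oncofetal genes were called higher and none lower, beside 5.75% of all genes. Afp, the fetal counterpart of albumin, and Igf2 were under the filter, with means of 4.67 ± 3.10 against 4.74 ± 2.20 for Afp and 0.738 ± 0.811 against 0 for Igf2 (SD, n = 5 and 3).

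Of 24 biliary and progenitor markers in the table, 6 passed the filter and 5 were called higher, with a median of 1.98. The filter averages over all 18 libraries, so a gene near 0 in controls passes it through the induced livers. With no filter 8 of the 24 were called higher and none lower, with a median of 1.09. The share over all genes with no filter was 5.75%. Spp1 (chr5:104435118-104441050), osteopontin, which bile duct cells secrete, had 6.58, 12.7 and 12.8 normalized counts in skip1 alone and 235, 179, 397, 356 and 157 in the tumours and rose by 4.46 ± 0.50 (SE, adjusted p = 1.01e-05). Bicc1, an RNA-binding protein, and Pkhd1, fibrocystin of the bile duct cilium, rose by 3.61 ± 0.46 (SE, adjusted p = 3.1e-05) and 2.74 ± 0.37 (SE, adjusted p = 4.9e-05). The defining keratin of bile ducts was not among the genes that rose. Krt19 had means of 0.837 ± 1.48 in the tumours and 0 in skip1 alone, and Sox9, a progenitor factor, 3.44 ± 2.37 against 0.71 ± 1.23 (SD, n = 5 and 3). Neither passed the test without a filter (adjusted p = 0.534 and 0.0900). The keratins that rose were those hepatocytes share with ducts, Krt18 from 98.7, 72.5 and 78.9 to 161, 149.9, 241, 247 and 183 (1.21 ± 0.21 (SE, adjusted p = 0.000802)) and Krt8 by 1.17 ± 0.20 (SE, adjusted p = 0.000628). The summed level of the 5 fixed cholangiocyte markers ran from 6.58 to 15.99 in skip1 alone and from 159 to 402 in the tumours, most of it Spp1. Its part in the result was not tested. In bulk liver, more cells of a type and more RNA per cell cannot be told apart.

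Among genes of the cell cortex and matrix, all calls were in 1 direction. Of 41 annexins, S100 proteins and cytoskeleton genes tested, 19 were called higher and none lower (median 0.80), and of 26 matrix genes 17 and none (median 1.05). The other 22 and 9 were not called. Without tumours 1 and 2 the counts were 20 and 15, under voom 29 and 18, and without skip1 alone replicate 1 or 3 that of matrix genes was 11. Anxa2 (chr9:69453620-69491795), which joins membranes to actin, had 4.93, 3.45 and 6.39 normalized counts in skip1 alone and 51.6, 35.2, 86.4, 84.8 and 71.3 in the tumours. Tumour 2 was lowest of the tumours and above every control, and the difference was 3.45 ± 0.30 (SE, adjusted p = 2.5e-07). Anxa5 rose by 2.29 ± 0.20 (SE, adjusted p = 2.51e-07), the actin crosslinker Flna by 2.01 ± 0.24 (SE, adjusted p = 1.57e-05) and Ahnak, a giant scaffold protein, by 1.66 ± 0.25 (SE, adjusted p = 0.000141). In the basement membrane, nidogen Nid1 had 8.22, 21.9 and 14.9 in skip1 alone and 83.9, 75.9, 91.9, 118 and 80.9 in the tumours (2.59 ± 0.27 (SE, adjusted p = 3.08e-06)), and the inhibitor of metalloproteinases Timp2 rose by 2.32 ± 0.40 (SE, adjusted p = 0.000628). The laminin chain Lama5 rose by 2.98 ± 0.55 (SE, adjusted p = 0.00106), a call lost under voom.

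Fibrillar collagens, which stellate cells and fibroblasts make, were among the matrix genes that rose. Col1a1 rose by 2.40 ± 0.46 (SE, adjusted p = 0.00137), Col1a2 by 2.08 ± 0.36 (SE, adjusted p = 0.000656) and Col3a1 by 1.80 ± 0.28 (SE, adjusted p = 0.000214). These 3 were the called members of 8 stellate markers tested, and no other member was called. The summed level of the 6 fixed stellate and fibroblast markers was 134 to 153 in skip1 alone and 161 to 253 in the tumours. Col1a1 and Col3a1 are 2 of these 6, with means of 34.9 and 98.6 in the tumours and 5.72 and 28.2 in skip1 alone. Of the 4 that passed the filter these 2 were called higher and none lower. No rise of the other stellate markers can be read from the sum. Of 17 endothelial markers none was called (median 0.20; 6 were called higher under voom), and the sum of the 6 fixed ones was 250.1 to 297 against 286 to 334.

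Most macrophage markers tested rose, while 6.55% of all genes were called higher. Of 16, 10 were called higher and none lower (median 1.03), 12 without tumours 1 and 2 and 6 without tumour 3. Lyz2, lysozyme of macrophages, had 31.2, 51.8 and 33.03 normalized counts in skip1 alone and 69.9, 67.5, 202, 97.5 and 108 in the tumours (1.38 ± 0.32 (SE, adjusted p = 0.00627)). Tumour 3 was highest, and every tumour was above every control. The cathepsin Ctss rose by 1.25 ± 0.26 (SE, adjusted p = 0.00305), the complement chain C1qb by 1.35 ± 0.27 (SE, adjusted p = 0.00216) and Mpeg1, a pore-former of phagocytes, by 1.49 ± 0.25 (SE, adjusted p = 0.000506). Ptprc (CD45), carried by all white blood cells, rose by 1.75 ± 0.32 (SE, adjusted p = 0.000987). The sum of the 6 fixed Kupffer and macrophage markers was 211 to 255 in skip1 alone and 275 to 439 in the tumours. Those of T and NK cells reached 1.86 at most and those of B cells 5.32, in any of the 8 libraries, and neutrophil markers 18.1.

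Part of the antigen presentation and interferon genes rose, while 6.55% of all genes were called higher and 8.18% lower. Of 22 antigen presentation genes 8 were called higher and 1 lower, and 13 were not called (median 0.54). The class II chain H2-Ab1 had 11.5, 12.7 and 10.7 normalized counts in skip1 alone and 65.6, 46.3, 58.5, 35.2 and 57.5 in the tumours (2.06 ± 0.27 (SE, adjusted p = 3.99e-05)), and its partners H2-Aa and H2-Eb1 rose by 1.98 ± 0.27 (SE, adjusted p = 6.8e-05) and 2.26 ± 0.33 (SE, adjusted p = 0.000122). The member that fell was H2-Q10, a secreted class I molecule of hepatocytes, at -1.06 ± 0.24 (SE, adjusted p = 0.00508), a call lost under quantile normalization. Of 19 interferon-stimulated genes, 10 were called higher and none lower (median 0.79; 5 without skip1 alone replicate 2 or 3 or tumour 3, 6 without skip1 alone replicate 1 or tumour 4 and under quantile normalization, 17 under voom). Ifit2, which binds foreign RNA, had 0, 2.32 and 1.08 in skip1 alone and 17.4, 12.6, 15.01, 20.2 and 24.7 in the tumours (3.28 ± 0.38 (SE, adjusted p = 1.12e-05)), and Ifit3 rose by 2.17 ± 0.41 (SE, adjusted p = 0.00132), least in tumour 2. The macrophage markers above were higher in the same libraries, and their part in the result was not tested.

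**Figure D3:**
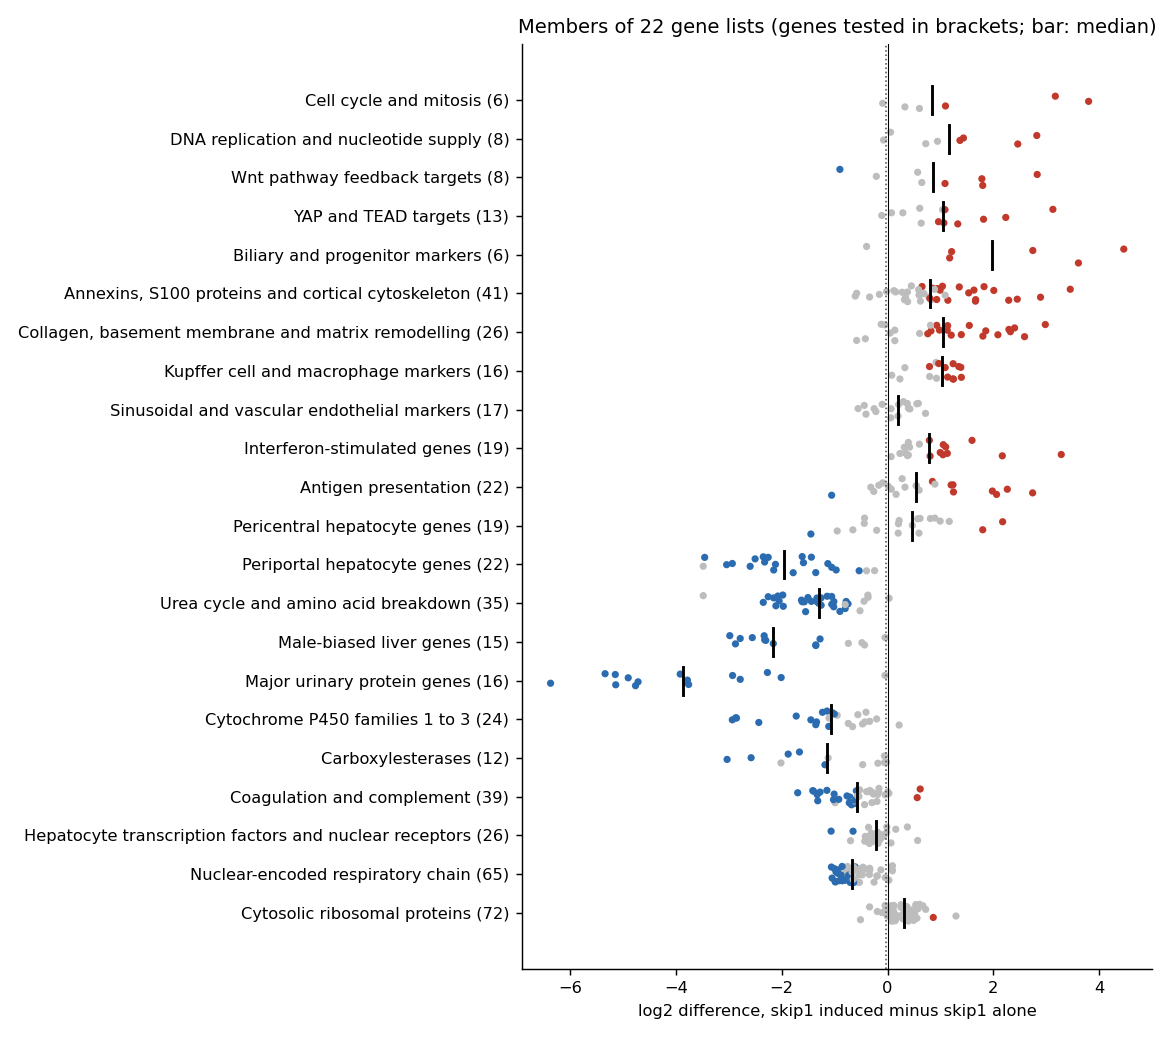
Each point is a tested member of a gene list, placed by its log2 difference, skip1 induced minus skip1 alone; red and blue mark calls in either direction, bars are list medians and the dotted line is the median of all genes. The 19 of 22 portal genes, 28 of 35 urea and amino acid genes and 15 of 16 Mup genes called lower lie left of 0, and the called cytoskeleton, matrix and macrophage genes right of it.

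Most genes of portal hepatocytes fell. Of 22 tested, 19 were called lower and none higher, with a median of -1.95, and without tumours 1 and 2 the count was again 19. Under quantile normalization it was 12. Hal (chr10:93488768-93519304), which breaks down histidine, had 301, 421 and 367 normalized counts in skip1 alone and 41.96, 65.7, 23.2, 10.8 and 45.8 in the tumours. Its values were 10.8 in tumour 4 and 65.7 in tumour 2, all far under the lowest control, and it fell by 3.45 ± 0.45 (SE, adjusted p = 3.99e-05). The glutaminase Gls2 had 172, 318 and 125 in skip1 alone and 35.4, 71.9, 17.2, 14.4 and 41.4 in the tumours (-2.60 ± 0.47 (SE, adjusted p = 0.000987)), and Cyp2f2, a P450 of the portal zone, 607, 769 and 1028 and 176, 343, 39.01, 45.1 and 100.1 (-2.93 ± 0.66 (SE, adjusted p = 0.00476)). Tumour 2 was the highest tumour for all 3.

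Most genes of the urea cycle and of amino acid breakdown fell. Of 35 genes 28 were called lower and none higher (median -1.30; 19 under quantile normalization and 21 under voom). Cps1, which makes the first compound of the cycle, had 4275, 5061 and 3596 normalized counts in skip1 alone and 1542, 2488, 489, 581 and 748 in the tumours (-2.15 ± 0.47 (SE, adjusted p = 0.00399), a call lost under quantile normalization). Otc, the next enzyme, had 135, 208 and 188 and 67.8, 103, 21.4, 18.1 and 35.1 (-2.11 ± 0.42 (SE, adjusted p = 0.00189)), and Arg1, which releases urea, 801, 1004 and 750.2 and 323, 445, 111, 63.2 and 168 (-2.25 ± 0.53 (SE, adjusted p = 0.00623)). Tat, which starts tyrosine breakdown, fell by 2.35 ± 0.34 (SE, adjusted p = 0.000114), least in tumour 2.

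Major urinary proteins, pheromone carriers that male mouse liver secretes in bulk, had the lowest median of the lists, with 1 exception to the fall. Their genes lie in a cluster on chromosome 4 and are near-identical, so reads may be shared between them and single members are uncertain. Of 16 tested, 15 were called lower (median -3.87). The 17 genes other than Mup20 summed to 6065.5 ± 4979.4 normalized counts in the tumours (SD, n = 5) and 51082 ± 15847 in skip1 alone (n = 3), a log2 ratio of -3.37 (two-sided exact permutation test of 56 splits, p = 0.0179, the smallest the design allows). Mup20, which did not fall, was left out of this sum after its values were seen. The p-value is therefore no independent test of the family. These 17 genes made 8.14%, 5.59% and 10.2% of all normalized counts in skip1 alone and 1.36%, 2.76%, 0.458%, 0.802% and 0.894% in the tumours. Mup7 (chr4:60066469-60070475) had 10887, 8619.5 and 12444 in skip1 alone and 464, 2351, 76.2, 297 and 350.3 in the tumours (-4.76 ± 0.90 (SE, adjusted p = 0.00137)), tumour 2 standing above the others. Mup9 fell by 6.37 ± 0.76 (SE, adjusted p = 1.57e-05) and Mup12 fell by 5.34 ± 0.83 (SE, adjusted p = 0.00024).

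Mup20 (chr4:62050234-62054158), named here after its values were seen, encodes darcin, the male pheromone that attracts females. It had 6733, 6794 and 6597 normalized counts in skip1 alone and 6278, 5694, 8112, 6926 and 5724 in the tumours. The groups overlapped, with tumour 3 highest, although tumour 3 had the lowest share of the other Mup genes. The difference was -0.05 ± 0.28 (SE, adjusted p = 0.931), and no alternative tried called it. As a share of all normalized counts Mup20 made 1.01% to 1.09% in skip1 alone and 1.09% to 1.95% in the tumours.

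**Figure D4:**
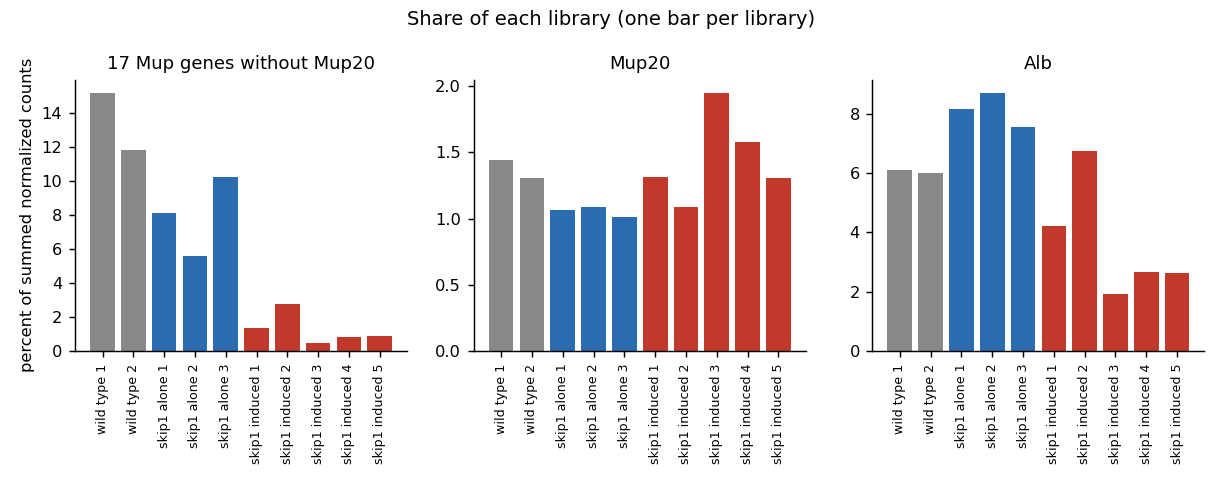
Bars give the share of summed normalized counts, 1 bar per library, of 17 Mup genes without Mup20 (left), Mup20 (middle) and Alb (right) in wild type, skip1 alone and skip1 induced livers. The 17 genes drop from at least 5.59% in skip1 alone to at most 2.76% in the tumours and Mup20 does not. Against skip1 alone, Alb drops least in tumour 2, where its share (6.75%) is above both wild type livers (6.12% and 6.02%).

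Most other genes made more in male than female liver fell too. Of 15 tested, 11 were called lower and none higher (median -2.16); 2 of the 15 belong to the Mup family. Cyp7b1 (chr3:18071950-18243338), which hydroxylates oxysterols, had 127, 146 and 131 normalized counts in skip1 alone and 15.1, 27.8, 9.29, 21.7 and 12.8 in the tumours and fell by 2.98 ± 0.30 (SE, adjusted p = 2.57e-06). The steroid dehydrogenase Hsd3b5 had 92.1, 81.7 and 131 and 22.6, 26.8, 5.57, 13.5 and 22.4 (-2.56 ± 0.36 (SE, adjusted p = 9.19e-05)). Both were lower in all 5 tumours than in all 3 controls. Of 17 genes listed as made more in female liver, 3 passed the filter, 1 was called higher and none lower (median -1.07). The labels give no sex, so which sexes the groups held was not tested.

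Among enzymes of drug and steroid metabolism, more were called lower than higher. Of 24 cytochromes P450 of families 1 to 3, 13 were called lower and none higher (median -1.07), 15 lower without tumours 1 and 2 and 9 lower and 1 higher under voom. Cyp3a11, the main drug-oxidising P450, had 2136, 1921 and 2414 normalized counts in skip1 alone and 501, 860.3, 349, 208 and 315 in the tumours (-2.43 ± 0.41 (SE, adjusted p = 0.000591)), and Cyp2c29 fell by 2.85 ± 0.62 (SE, adjusted p = 0.00386). Of 36 conjugating enzymes, 14 were called lower, 2 higher and 20 were not called (8 lower and 1 higher without skip1 alone replicate 3; 9 and 3 under quantile normalization; 10 and 4 under voom). Ugt1a9, which adds glucuronic acid, had 50.97, 54.1 and 55.4 and 3.23, 6.48, 3.72, 1.81 and 2.13 (-3.70 ± 0.52 (SE, adjusted p = 8.78e-05)), while the glutathione transferase Gstm2 went up from 34.5, 26.5 and 36.2 to 65.6, 69.4, 94.7, 123 and 120.3 (1.48 ± 0.25 (SE, adjusted p = 0.000492)). Genes of the Ugt1a locus share exons, so the reads of Ugt1a9 are uncertain. Of 12 carboxylesterases, another family of close copies, 5 were called lower and none higher (3 lower without skip1 alone replicate 2; 4 lower and 1 higher under quantile normalization), with Ces2c at -3.03 ± 0.58 (SE, adjusted p = 0.00137).

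Transporters and enzymes of bile acids were split. Of 22 tested, 6 were called lower and 2 higher (2 and 2 under quantile normalization, 4 and 3 under voom, where the median of -0.46 became -0.02). Abcb11, the pump that exports bile salts into bile, had 415, 553 and 653 normalized counts in skip1 alone and 143, 236, 159, 149 and 139.6 in the tumours (-1.71 ± 0.21 (SE, adjusted p = 2.23e-05)), all 5 tumours under all controls. The 2 that rose were efflux pumps, Abcb1a from 1.64, 1.15 and 2.13 to 15.1, 11.1, 12.1, 24.4 and 7.45 (2.43 ± 0.36 (SE, adjusted p = 0.000159)) and Abcc4 from 0, 3.48 and 5.37 to between 8.39 and 23.4 (2.52 ± 0.51 (SE, adjusted p = 0.0022)). Cyp7a1, the rate-limiting enzyme of bile acid synthesis, had 109, 43.7 and 30.9 and 53.8, 63.8, 30.6, 27.98 and 29.8, overlapping ranges with a difference of -0.43 ± 0.40 (SE, adjusted p = 0.514).

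Of secreted plasma proteins some were called lower, by numbers that depended on the scaling. Over all genes 6.55% were called higher and 8.18% lower, and acute-phase genes were called at about the share of all genes (14.7%). Of 23 hepatocyte plasma proteins and markers 11 were called lower and none higher (median -0.72; 7 lower without skip1 alone replicate 1 or 3; 2 lower and 2 higher under quantile normalization; 5 lower under voom). Alb, albumin, had 51870, 54545 and 49243 normalized counts in skip1 alone and 20193, 35386, 8019, 11658 and 11617 in the tumours (-1.78 ± 0.39 (SE, adjusted p = 0.00386)), a call lost under quantile normalization and when only the compared groups were fitted. Among the tumours Alb was highest in tumour 2 and lowest in tumour 3. In wild type it had 38913 and 36733, under every skip1 alone library and near tumour 2. Of 39 coagulation and complement genes 17 were called lower and 2 higher, with 8 lower without skip1 alone replicate 3, 10 without replicate 2, 11 without tumour 3 and 21 without tumours 1 and 2. They were 6 lower and 4 higher under quantile normalization and 7 and 3 under voom, with medians of -0.104 and -0.0981 against -0.57 as deposited. C8b, of the membrane attack complex, fell by 1.70 ± 0.24 (SE, adjusted p = 0.000108) and the prekallikrein gene Klkb1 fell by 1.40 ± 0.32 (SE, adjusted p = 0.00559). Of 28 apolipoprotein and lipoprotein genes 11 were called lower and 1 higher (4 lower without skip1 alone replicate 3 and 7 without tumour 4; 3 lower and 2 higher under quantile normalization; 4 and 1 under voom). Of 22 acute-phase genes 3 were called lower and 1 higher (1 lower without skip1 alone replicate 3 or tumour 3, 4 or 5). This balance turned to 2 lower and 5 higher under quantile normalization, where the median of -0.33 became 0.31, to 1 and 4 under voom and to 1 and 2 under upper-quartile scaling. Of 13 Serpina antiproteases 7 were called lower and 1 higher (median -1.34), but 3 and 1 under quantile normalization (median -0.43). The one that rose was Serpina7, which carries thyroid hormone in plasma, from 1.64, 6.90 and 5.33 to 40.9, 25.9, 102, 70.4 and 47.9 (3.37 ± 0.46 (SE, adjusted p = 6.43e-05)). The sum of the 5 fixed hepatocyte markers in the table ran from 56580 to 61590 in skip1 alone and from 11090 to 40840 in the tumours.

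Transcription factors of hepatocytes were called lower at about the share of all genes (8.18%), and none was called higher (6.55% over all genes). Of 26 hepatocyte transcription factors and nuclear receptors tested, 2 were called lower and none higher (4 and 1 without tumours 1 and 2; none lower and 2 higher under voom; none under quantile normalization; median -0.21, which turned to 0.24 under voom). Hnf4a, a master regulator chosen for mention after its values were seen, had 526, 454 and 427 normalized counts in skip1 alone and 407, 431, 278, 395 and 397 in the tumours. Tumour 2 alone, at 431, overlapped the controls, tumour 3 was lowest, and the difference was -0.31 ± 0.20 (SE, adjusted p = 0.329). Of 12 genes of the insulin-like growth factor axis 5 were called lower and 1 higher (1 lower without skip1 alone replicate 3; 3 and 3 under upper-quartile scaling; 2 and 2 under quantile normalization; 1 and 3 under voom), and Igfbp2, which binds these factors in plasma, fell from 112, 87.5 and 54.8 to 33.2, 29.5, 26.7, 11.1 and 16.4 (-1.85 ± 0.33 (SE, adjusted p = 0.000822)).

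Energy metabolism depended on the scaling. Its counts are to be read beside the 6.55% of all genes called higher and the 8.18% called lower. Genes of fatty acid and triglyceride synthesis were called lower at about the share of all genes. Of 65 nuclear genes of the respiratory chain 23 were called lower and none higher (median -0.67), but 12 under upper-quartile scaling, 11 under quantile normalization, 2 under voom, 8 without skip1 alone replicate 3, 14 without replicate 1 or 2 and 15 without tumour 4. Atp5g1, of the ATP synthase, had 241, 194 and 201 normalized counts in skip1 alone and 119.8, 122, 94.1, 82.4 and 90.7 in the tumours (-1.06 ± 0.18 (SE, adjusted p = 0.000708)), and was called under every alternative tried. Of 72 cytosolic ribosomal proteins 1 was called higher (median 0.31), 11 without tumours 1 and 2 and 39 under voom. Of 36 genes of fatty acid oxidation 9 were called lower and 1 higher (3 lower without skip1 alone replicate 3, 14 without tumours 1 and 2; 3 lower and 2 higher under quantile normalization; 1 and 3 under voom), of 29 of fatty acid and triglyceride synthesis 3 lower (none without skip1 alone replicate 2, 12 without tumours 1 and 2; 1 lower and 1 higher under voom), and of 24 of cholesterol synthesis 6 lower and none higher (2 lower without skip1 alone replicate 2). The cholesterol genes turned to 1 lower and 4 higher under voom and to 3 and 2 under quantile normalization. The medians of the synthesis lists, of -0.46 and -0.40, were 0.02 and 0.09 under voom. Of 16 glucose output genes 4 were called lower and 1 higher (2 lower without skip1 alone replicate 3; 3 and 2 under quantile normalization and voom). Fbp1, an enzyme of gluconeogenesis, fell by 1.36 ± 0.26 (SE, adjusted p = 0.00137). Of 16 glycolysis genes 4 were called lower and 2 higher (2 lower without skip1 alone replicate 3), which turned to none lower and 5 higher under voom and to 1 and 3 under quantile normalization. Pkm, the pyruvate kinase that many growing cells use, had 18.1, 18.4 and 12.8 and 34.4, 28.7, 40.9, 41.5 and 42.6 and rose by 1.15 ± 0.21 (SE, adjusted p = 0.00106).

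The remaining lists gave small counts, to be read beside the 14.7% of all genes called. Most of these counts changed by 1 or more when a library was left out. In the Notch pathway, of 5 genes tested the ligand Jag1 (2.32 ± 0.41 (SE, adjusted p = 0.000816)) and 1 other were called higher and Numb, an inhibitor of Notch, lower (-1.11 ± 0.24 (SE, adjusted p = 0.00399)). Of 21 NRF2 targets 3 were called higher, among them the cystine carrier Slc7a11 (1.41 ± 0.29 (SE, adjusted p = 0.00253)), and 1 lower (7 higher under voom). Of 17 junction genes 2 were called higher and 2 lower (6 and 1 under upper-quartile scaling, 8 and 1 under voom), with the gap junction protein Gjb1 at -0.97 ± 0.17 (SE, adjusted p = 0.000718). No circadian clock gene was called of 13 tested (3 were called higher under voom). In iron, copper and heme handling 2 of 24 were called lower (1 lower and 2 higher under quantile normalization and voom), in the unfolded protein and amino acid stress response 2 of 14 lower and 1 higher (none lower and 2 higher under voom), and among red blood cell genes 1 of 6 lower.

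The tumours differed among themselves most in Mup genes and in enzymes. Among genes whose tumour mean reached 100, 7 of the 10 with the largest spread were Mup genes, and the other 3 were Car3, Cyp2c29 and Cyp2f2. Car3, a carbonic anhydrase, had 307, 672, 26.9, 51.4 and 253 normalized counts in the tumours and 832, 894 and 1777 in skip1 alone. Tumour 2 was highest and tumour 3 lowest for Car3, Mup7, Mup19 and Alb alike. These levels describe 5 libraries and were not tested.

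To ask where the skip1 difference departs from those of the other isoforms, it was set against that of skip2 (2 induced and 2 alone) and of dN90 (4 induced against 2 wild type), which share no library with it. Against skip2, 11 of 6592 genes (0.167%) differed, 9 with a higher value for skip1. Hsd3b5 had a log2 difference of -6.81 in skip2 and -2.56 in skip1 and came down to 0 and 0.596 normalized counts in the skip2 induced libraries, so the size of the difference, 4.25 ± 0.61 (SE, adjusted p = 0.00138), depends on the pseudocount. It was lost under voom and among genes with a mean of at least 50. Cyp4a12a, a male-biased hydroxylase of fatty acids, differed by 4.39 ± 0.63 (SE, adjusted p = 0.00138), with 47.3, 68.5, 29.7, 81.2 and 58.6 in the skip1 tumours and 1.38 and 1.79 in skip2 induced. Sult2a8, a bile acid sulfotransferase, differed by 3.88 ± 0.47 (SE, adjusted p = 0.000339). Igfbp2 fell in the skip1 tumours and was 32.1 and 40.9 in skip2 alone and 157 and 182 in skip2 induced, a difference of -4.04 ± 0.56 (SE, adjusted p = 0.00138). Saa2, an acute-phase protein with a near-identical copy, differed by 6.98 ± 1.26 (SE, adjusted p = 0.0201), but its values were 3054 and 915 in skip2 alone and 146, 21.9 and 21.3 in skip1 alone, so the controls differed too. Its call was lost without skip1 alone replicate 2 or 3, skip2 alone replicate 1, skip2 induced replicate 1 or tumours 1 and 2. Without skip2 induced replicate 2 the count rose to 150. It was 4 without skip1 alone replicate 3, skip2 alone replicate 1 or skip2 induced replicate 1, 5 without replicate 2 of either control group, 7 without tumour 1, 19 without tumour 3 and 8 to 24 under the other alternatives.

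Against dN90, 71 genes (1.08%) differed, 52 with a higher value for skip1. The controls of dN90 were wild type, so differences between wild type and skip1 alone enter this contrast. Ctnnb1 was 135, 150.0, 171 and 199 in dN90 induced and 128 and 148 in wild type, so its gene-level rise in the skip1 tumours exceeded that of dN90 by 2.22 ± 0.34 (SE, adjusted p = 0.00083). Whether this value counts RNA of the dN90 form was not tested. Mup20 was 554, 234, 196 and 285 in dN90 induced against 9158 and 7963 in wild type, and its difference between the contrasts was 4.82 ± 0.43 (SE, adjusted p = 1.34e-06). Mup10 and Mup14, at or under 55.1 in every dN90 induced library, differed by 10.02 ± 1.40 (SE, adjusted p = 0.000338) and 8.87 ± 1.34 (SE, adjusted p = 0.00083), sizes that depend on the pseudocount because these libraries lie near 0; Mup14 was lost under voom. Ahnak rose in both and by more in dN90 (4.12), a difference of -2.46 ± 0.38 (SE, adjusted p = 0.00101). Sult1a1, a sulfotransferase for phenols, rose by 0.80 in skip1 (adjusted p = 0.0105, lost without skip1 alone replicate 3) and by 2.25 in dN90, a difference of -1.45 ± 0.31 (SE, adjusted p = 0.0215) that was lost with depth as a covariate and without 1 of 4 single libraries (wild type 2, skip1 alone 1 or 2, dN90 induced 3). The count of 71 was 29 without wild type replicate 2, 41 without replicate 1, 34 without skip1 alone replicate 2 and 34 with depth as a covariate.

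**Figure D5:**
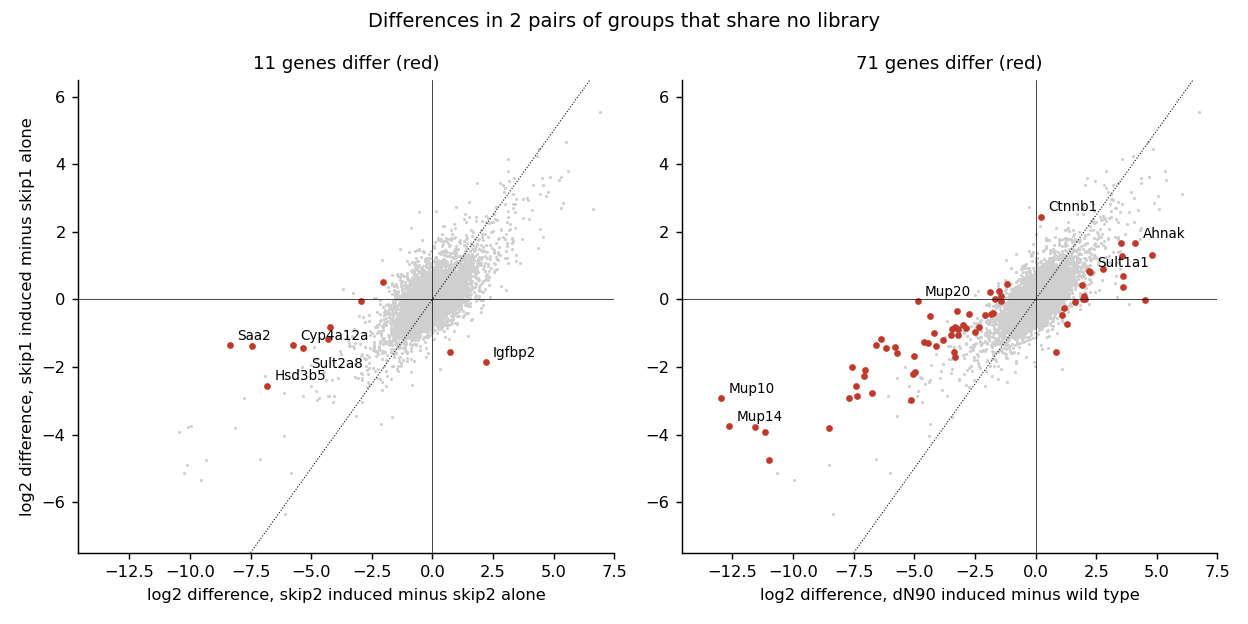
Each point is a gene, with its log2 difference of skip1 induced minus skip1 alone on the y axis and that of skip2 induced minus skip2 alone (left) or dN90 induced minus wild type (right) on the x axis; the dotted line marks equal differences. Red points are the 11 and 71 genes whose differences differed from each other, among them Ctnnb1 and Mup20 against dN90.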

How the data were processed

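Total RNA from mouse liver was sequenced as strand-specific libraries, per the labels' protocols. The authors deposited 1 signal value per gene, a normalized count and not a raw one, for 14086 genes in 18 libraries. FastQC, STAR, RSEM, DESeq2 and the mm10 build are named, per the submitters' processing notes, with no settings stated. About 60% of nonzero deposited values were multiples (tolerance 0.001) of a library-specific step, so reads were estimated from the column sum and that step and used only for voom and depth. The z-score table was not used here.

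Genes with a mean of at least 10 were fitted with limma 3.58.1 in R 4.3.3 on log2(value + 1), with 1 coefficient per group for 6 groups and a trended prior. Tests were two-sided with Benjamini-Hochberg adjustment over all 6592 genes, and calls had an adjusted p under 0.05. A log2 difference understates the change of low genes. The fit was tested on simulated data. Counts of called genes were taken for 51 lists, with no set test. Members, lists and tests were chosen with earlier results of these data known. Named genes were up to 12 per direction with the largest differences (called, not overlapping, mean of at least 100), up to 4 called members per list and direction, 16 fixed genes (among them Afp, Ccn2, Igf2, Krt19, Lgr5 and Sox9), the 10 with the largest spread among tumours, and up to 5 per direction in each contrast with skip2 and dN90. The text names part of these. Mup20, Hnf4a, Krt8, Crim1 and Axl lie outside the rule and were chosen after their values were seen. Coordinates are from GENCODE M21 on mm10 and promoter sequences from RefSeq on GRCm38.p6. No other sample column was left unused. Alternatives were pseudocounts of 0.5 and 5, no filter or a mean of 50, scaling to the upper quartile, quantile normalization, voom, array weights, depth as a covariate, only the compared groups, and leaving out libraries.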

Additional observations from a re-analysis of the deposited data

Results flagged for a closer look

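Of 92 genes checked for a sample far from the others in the skip1 tumours, 10 had a tumour that stood apart. Chance does this in about 1 in 20 groups of this size. Tumour 2 was the high one for Abcb11 (236 normalized counts), Mup7 (2351), Mup9 (7.40) and Tat (618), and the low one for Ifit3 (4.62). Tumour 3 was low for Gjb1 (122) and Hnf4a (278) and high for Ctss (100.3). Tumour 4 was high for Col1a1 (60.5) and tumour 1 for Ctnnb1 (1266).

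Differences that departed from those of skip2 or dN90 beyond the spread, by limma's test of the difference itself, are given as the skip1 value minus the other in log2 units. Against skip2 they were 4.39 for Cyp4a12a, 4.25 for Hsd3b5, -4.04 for Igfbp2, 6.98 for Saa2 and 3.88 for Sult2a8. Against dN90 they were -2.46 for Ahnak, 1.61 for C8b, 2.22 for Ctnnb1, 4.76 for Cyp2f2, 5.21 for Cyp4a12a, 2.14 for Cyp7b1, 4.84 for Hsd3b5, 10.02 for Mup10, 8.87 for Mup14, 7.77 for Mup19, 4.82 for Mup20, 6.21 for Mup7, -3.47 for Ptpn14, -1.45 for Sult1a1 and 4.72 for Sult2a8. Of 25 alternatives each (24 for Ptpn14), the dN90 differences of some were lost in many. That of C8b was called in 13 and lost without any 1 of 9 libraries (skip1 alone 1, 2 or 3, wild type 1 or 2, tumour 1 or 4, dN90 induced 3 or 4), with depth as a covariate, with only the compared groups and without tumours 1 and 2. That of Mup7 was called in 16 and lost without skip1 alone 1 or 2, wild type 1 or 2 or tumour 1 or 5, under voom, with depth as a covariate and without tumours 1 and 2. That of Cyp7b1 was called in 17 and lost without skip1 alone 1 or 2 or wild type 1, with a pseudocount of 5, under quantile normalization and voom, with depth as a covariate and without tumours 1 and 2. Those of Cyp2f2 (19) and Mup19 (20) were lost without wild type 1 or 2 or skip1 alone 2, under voom and with depth as a covariate, and that of Cyp2f2 also without skip1 alone 1. Sult1a1 was called in 20, and Ptpn14 and Mup14 were lost under voom. Of 23 alternatives against skip2, Saa2 was called in 18 and Hsd3b5 in 21. Several of these genes were near 0 in dN90 or skip2 induced livers, where the size of a difference depends on the pseudocount. Ptpn14 was instead near 0 in wild type (2.27 and 0), beside 6.58, 5.75 and 5.33 in skip1 alone. Its difference ran from -4.32 to -2.19 over the alternatives.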

How the results depend on the processing

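Of 971 calls in skip1 tumours against skip1 alone, leaving out 1 library gave 568 to 1217, with 272 to 513 higher and 296 to 704 lower. Genes with a mean of at least 50 gave 545, 117 of them higher. No filter gave 810 higher. Voom gave 1229 higher and 208 lower, and quantile normalization 303 lower. Of 11 genes that departed from skip2 (9 higher, 2 lower), leaving out 1 library gave 4 to 150 (3 to 147 higher, 1 to 4 lower). A pseudocount of 5 gave 21 (17 and 4), quantile normalization 17 with 4 lower, only the compared groups 20 (19 and 1), array weights 24 (19 and 5), depth as a covariate 4 lower, no filter 1 lower and leaving out tumours 1 and 2 together 1 lower. Of 71 genes that departed from dN90 (52 higher, 19 lower), leaving out 1 library gave 29 to 89 (22 to 60 higher, 6 to 30 lower), depth as a covariate 34 (27 and 7) and voom 9 lower. The causes were not tested. No single gene named reversed its direction while called. Of single-gene values under an alternative, 84 lost the call and 6 gained one. No paired analysis was possible because the labels give no replicate numbers, and numbers in accession order pair no samples. Libraries held 385526 to 611153 estimated reads, which limits genes near the filter.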
